A study of Mus musculus with 6 samples.

Results

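The genes described here are 40 genes that fold proteins in the endoplasmic reticulum (ER), watch over their folding, or clear those that misfold by ER-associated degradation (ERAD). They were taken from a given list of gene symbols: 39 were found by symbol and *Selenos* by its older symbol *Vimp*, among 16640 genes with counts. By role, they are 5 sensors and regulators, 9 chaperones of the Hsp70 and Hsp90 families with their co-factors, 3 proteins of the lectin chaperone cycle, 7 disulfide enzymes, 2 prolyl isomerases, 12 ERAD genes and 2 subunits of the translocon. All 40 were among the 12516 genes that passed the filter on low counts.

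Part of the study raised the expression of *Thada* in β-cells, and the data are 6 RNA libraries of MIN6, a mouse pancreatic β-cell line, 3 per condition. In the *Thada*-activated cells, a lentivirus brought in dCas9-VP64 under puromycin selection, and a further lentivirus under G418 selection brought in a guide RNA to the *Thada* promoter together with MS2-P65-HSF1 activators. Control cells received lentiviruses for dCas9 and a non-targeting guide RNA. All cell experiments of the study are described as run 3 or more times separately, while the labels of the libraries do not name separate cultures. If libraries of a condition share a culture, the p-values measure only the spread between these libraries, which may be technical.

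Proinsulin is folded, and its disulfide bonds are formed, in the ER of the β-cell. Unfolded proteins that gather there activate the sensors ATF6, IRE1 and PERK, which slow translation and turn on genes for chaperones, folding enzymes and ERAD, a program called the unfolded protein response. ERAD recognizes proteins that fail to fold, moves them back through the membrane, tags them with ubiquitin and hands them to the proteasome.

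The control libraries held 17272834, 17166511 and 17689611 estimated counts, and the *Thada*-activated libraries 17727004, 17385036 and 17224631; these and all other values per library are given in the order of replicates 1, 2 and 3. Levels are given in CPM, which are counts scaled to a library total of 1000000, and 1 count corresponds to between 0.0564 and 0.0583 CPM. The replicate 3 library stands apart from the other libraries in both conditions. Over all genes, the chi-square per degree of freedom between the counts of 2 libraries of a condition was 4.43 for control replicates 1 and 2 and 1.84 for *Thada*-activated replicates 1 and 2, but from 93.5 to 133 for pairs that include replicate 3. The conditions were therefore compared without and with the replicate number as a block, within each replicate number, and for replicates 1 and 2 alone. The labels do not say that a replicate number pairs libraries of the conditions.

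*Thada*, the target of the activation, was at 27.7, 28.95 and 16.96 CPM in the control libraries and at 57.4, 56.2 and 50.2 CPM in the *Thada*-activated libraries. The lowest activated library lay above the highest control library, and control replicate 3 was the lowest of all. The means were 24.5 ± 6.60 and 54.6 ± 3.89 CPM (SD, n = 3), with a two-sided exact permutation p = 0.1, which is the smallest that 3 against 3 libraries can give. The log2 fold change was 1.13 (SE 0.22, adjusted p = 1.00 in edgeR) without the block and 1.15 (SE 0.10, adjusted p = 4.10e-04) with it, and the replicate numbers gave 1.03, 0.96 and 1.51. *Thada* was called with the block, and with DESeq2 without a block its adjusted p was 0.0104.

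The libraries carry the markers of β-cells, with little of other pancreatic cells. All 10 of the β-cell markers looked for were above the floor of 3 counts in some library, and their sum was 119891, 110202 and 139750 CPM in the control and 116279, 114189 and 127990 CPM in the *Thada*-activated libraries, most of it *Ins2*. The glucose transporter gene *Slc2a2* was the weakest, at 0.0579, 0.233 and 0.0565 and 0.169, 0.173 and 0.523 CPM. The 5 markers of other islet cells in the table summed to 196, 167 and 109 and 185, 173 and 117 CPM with *Sst* as the top gene, and *Ghrl* was at or under the floor in every library. Of 7 acinar and duct markers 3 were in the table, summing to 0.579, 0.524 and 0.396 and 2.37, 1.496 and 1.10 CPM, all but a trace of it *Krt19*, while *Ctrb1* and *Sox9* were at or under the floor. Of 7 markers of fibroblasts, endothelium and blood cells 5 were in the table, summing to 3.01, 2.27 and 4.92 and 2.59, 3.34 and 5.46 CPM with *Col1a1* at the top and *Kdr* at or under the floor. In bulk RNA of this kind, fewer cells of a type and less RNA per cell cannot be told apart.

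Some cell markers also set replicate 3 apart, in both directions. *Ins2* took 6.37, 5.65 and 10.2% of all counts in the control libraries and 6.44, 6.29 and 8.36% in the *Thada*-activated libraries, and replicate 3 had the highest share in each condition. Against replicates 1 and 2, the log2 fold changes in replicate 3 were 0.82 for *Ins1* and 0.57 for *Ins2*. Lower values were found for the islet amyloid peptide gene *Iapp* (-0.58), the transcription factor gene *Pdx1* (-1.03), *Mafa* (-0.61) and the zinc transporter gene *Slc30a8* (-0.96). *Nkx6-1* (-0.33), *Chga* (-0.28) and *G6pc2* (-0.26) were lower too, and all these β-cell markers had an adjusted p under 0.05. Markers of other cells also set replicate 3 apart at that threshold, with -1.14 for *Sst*, -0.34 for *Gcg*, 0.70 for *Ppy*, -0.83 for *Krt19*, 1.28 for *Col1a1* and -1.001 for *Cd68*. The part of these differences in what follows for the ER genes was not tested.

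Most ER genes of the list were slightly lower in the *Thada*-activated libraries, and none passed the test at the size required. A gene is called here at a Benjamini-Hochberg adjusted p under 0.05 over all tested genes with a fold change over 1.5. Chaperones and disulfide enzymes had the lowest values, sensors lay close to 0, and the 3 members with a value above 0 without the block were *Xbp1*, *Fkbp2* and *Sec61b*. Together, the members made up 1.65, 1.71 and 0.998% of all counts in the control and 1.55, 1.57 and 0.880% in the *Thada*-activated libraries. At each replicate number the activated library had the smaller share, but the spread between replicate 3 and the others within a condition was wider than this difference.

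Without the block, edgeR called 0 of the 40 members between the conditions, beside 0% of all genes, and 0 members had an unadjusted p under 0.05, as 101 genes did in all. DESeq2 called 0 members and 5 genes. The median log2 fold change of the members was -0.10 and 37 of 40 were below 0, against a median of -0.0040 and 51.3% of all genes. That median moved to -0.30 without control replicate 3 and to 0.055 without *Thada*-activated replicate 3, and either way the conditions then differ in their share of replicate 3. With replicates 1 and 2 alone it was -0.079, with 33 of 40 below 0. The adjusted p of every member was 1.00 without the block. Among the 21 members given in full below and *Thada*, leaving out a library turned the sign of the unblocked value in 18; those of *Thada*, *Atf6*, *Sel1l* and *Edem3* kept their sign but not their size, going from 0.93 to 1.26 for *Thada*, from -0.18 to -0.036 for *Atf6*, from -0.25 to -0.070 for *Sel1l* and from -0.29 to -0.042 for *Edem3*.

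With the block, again 0 of 40 members were called, beside 0.152% of all genes, and DESeq2 with the block called 0 as well. An unadjusted p under 0.05 was found for 16 of 40 members in edgeR, beside 10.4% of all genes. Of these, 15 were lower in the activated libraries, beside 4.34% of all genes lower at that threshold, and the remaining gene, *Sec61b*, was higher. The median was -0.11 and 38 of 40 were below 0, while the median of all genes was -9.2e-04. By role, the members with an unadjusted p under 0.05 were 0 of 5 sensors and regulators, 6 of 9 Hsp70 and Hsp90 chaperones and co-factors, 2 of 3 in the lectin cycle, 4 of 7 disulfide enzymes, 0 of 2 prolyl isomerases, 3 of 12 ERAD genes and 1 of 2 translocon subunits. No test compared the roles with each other. Of the cell markers, *Krt19* (1.78, adjusted p = 0.0548) and *Ppy* (0.33, adjusted p = 0.213) had an unadjusted p under 0.05 in the same edgeR fit, both higher. The part of these markers in the values of the members was not tested.

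The replicate numbers taken singly pointed the same way. Ratios by replicate number are taken after TMM scaling, which CPM lack, so a ratio just below 0 can stand beside a slightly higher CPM, as at replicate number 1 for *Xbp1*, *Dnajc10*, *Derl1* and *Edem1*. The activated library was the lower of the pair for 34, 29 and 37 of the 40 members at replicate numbers 1, 2 and 3, with median log2 ratios of -0.092, -0.067 and -0.20. In all 3 pairs it was lower for 26 of 40 members, beside 16.7% of all genes, and higher for 2, *Fkbp2* and *Sec61b*. For replicates 1 and 2 alone, edgeR gave an adjusted p under 0.05 for 7 of 40 members, beside 3.41% of all genes; all were lower and none passed a fold change of 1.5. They were *Hspa5* -0.21, *Hsp90b1* -0.23, *Dnajb9* -0.17, *Dnajc3* -0.20, *Uggt1* -0.17, *Pdia3* -0.18 and *Pdia6* -0.23, as log2 fold changes. With the replicate block on the same libraries, 5 of them had an adjusted p under 0.05, and *Dnajb9* and *Uggt1* did not. Of the cell markers in the same fit, 5 had an adjusted p under 0.05, in both directions: -0.26 (adjusted p = 0.00565) for *G6pc2*, 0.24 (adjusted p = 0.00979) for *Mafa*, -0.18 (adjusted p = 0.0115) for *Iapp* and 0.20 (adjusted p = 0.0169) for *Nkx6-1*, of β-cells, and 1.87 (adjusted p = 5.72e-04) for *Krt19*, of duct cells and scarce throughout. Their part in the values of the members was not tested. When all 6 libraries were counted, the conditions did not overlap for 1 of 40 members, *Pdia5*, beside 5.43% of all genes.

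**Figure D1:**
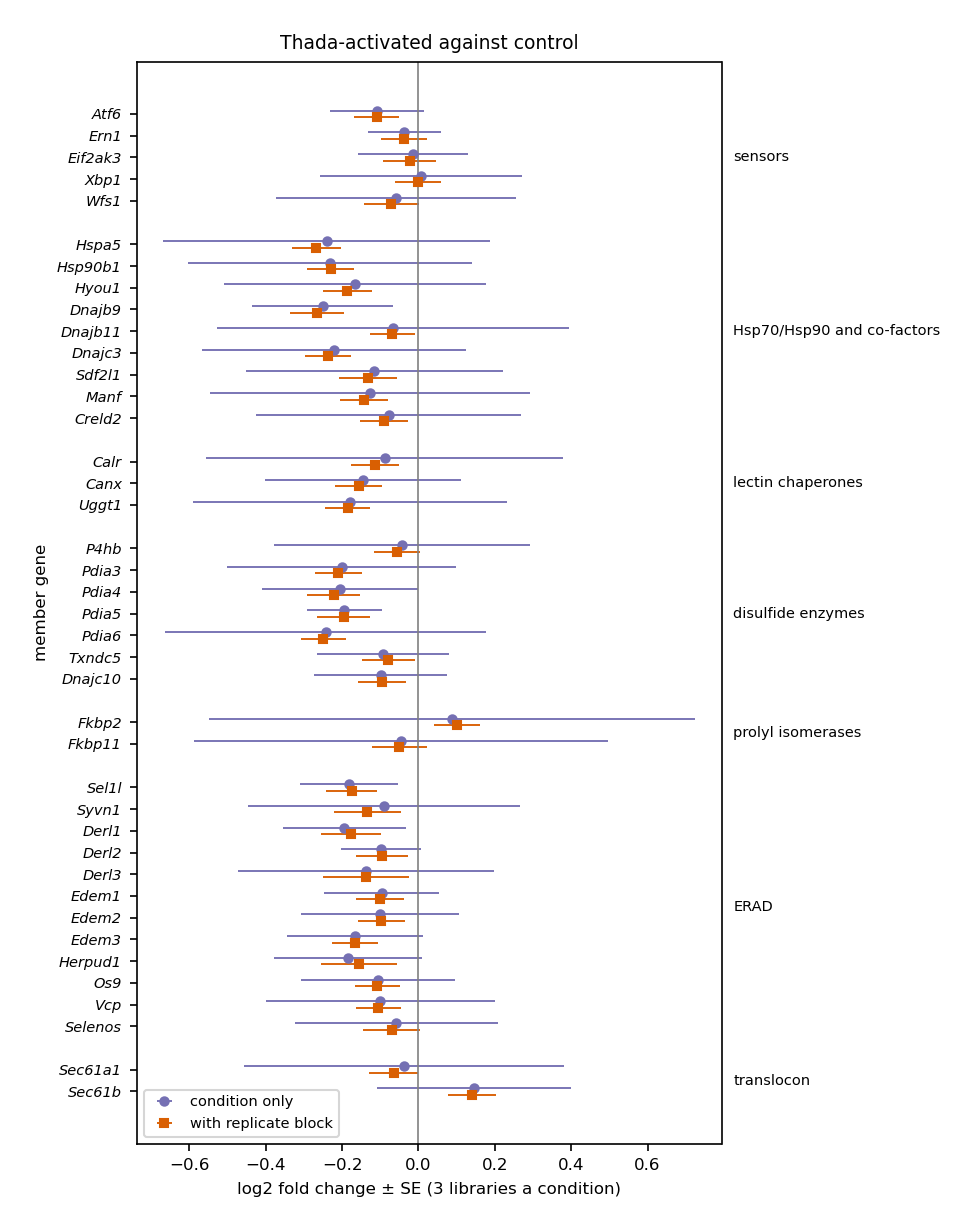
Difference of the *Thada*-activated from the control libraries on the log2 scale for each of the 40 members, grouped by role, without (circles) and with (squares) the replicate block; bars are the standard error from edgeR over 3 libraries a condition. Of 40 values, 37 without and 38 with the block are below 0, between -0.27 and 0.14 with it, and the standard errors are wider without the block.

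A far larger difference separates replicate 3 from replicates 1 and 2 in both conditions. In replicate 3, prolyl isomerases, lectin chaperones, most Hsp70 and Hsp90 chaperones and the translocon were at much lower levels, while the ERAD genes went both ways. This division of the libraries was chosen because earlier results had shown replicate 3 to stand apart, so its values describe these libraries and are read beside the share of all genes. With the condition in the fit, edgeR called 24 of 40 members, beside 31.1% of all genes. All 24 were lower in replicate 3, beside 15.4% of all genes called lower. An adjusted p under 0.05 at any fold was found for 37 of 40 members, beside 68.6% of all genes; the exceptions were *Ern1*, *Pdia5* and *Derl2*.

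The median log2 fold change of the members in replicate 3 was -0.70, with 34 of 40 below 0, against a median of 0.0011 and 49.9% of all genes. Their single values ran from -1.79 for *Fkbp2* to 0.36 for *Txndc5*. The libraries of replicate 3 lay apart from all those of replicates 1 and 2 for 38 of 40 members, beside 72.1% of all genes; the exceptions were *Pdia5* and *Sel1l*. Fitted in each condition by itself, the median was -0.65 in the control libraries and -0.77 in the *Thada*-activated libraries. The top 20 genes, with *Ins2* among them, took 18.1, 17.1 and 20.1% of counts in the control and 17.3, 17.2 and 19.01% in the *Thada*-activated libraries; with library sizes that leave those 20 genes out, 23 of the 24 calls were kept and *Canx* was not.

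**Figure D2:**
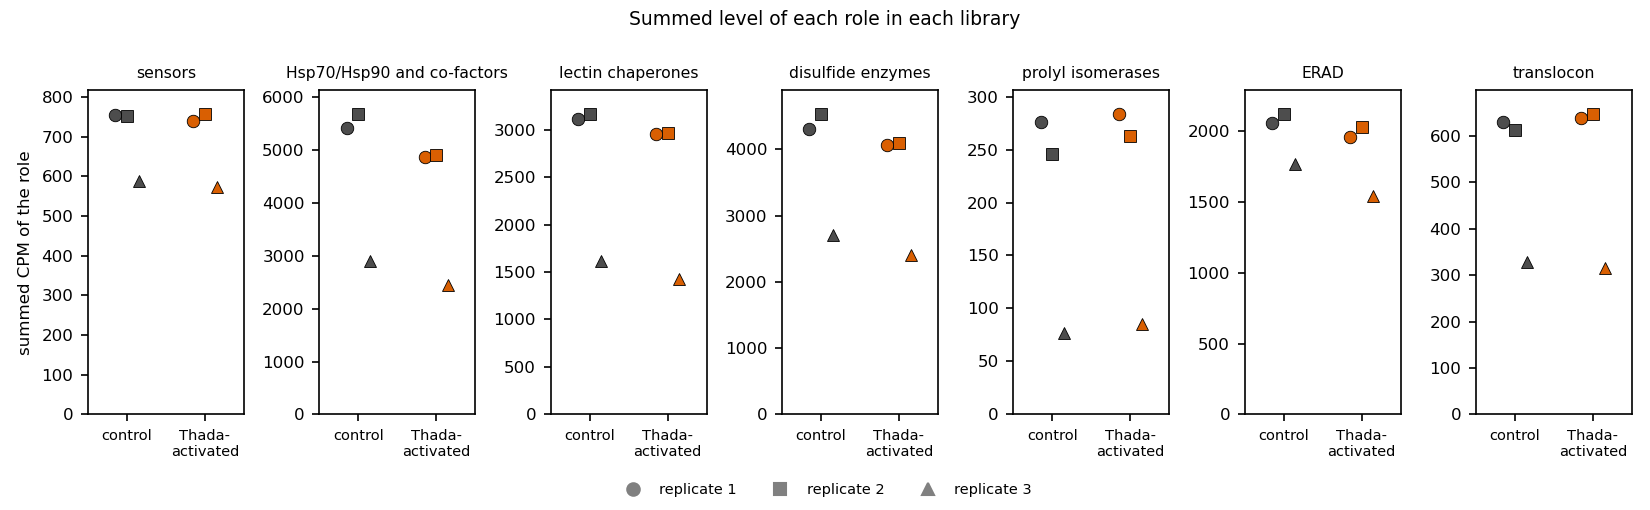
Summed CPM of the members of each role in each library, 1 panel a role with its own axis from 0; circles, squares and triangles are replicates 1, 2 and 3. The replicate 3 libraries are the lowest of each condition in all 7 roles; the Hsp70 and Hsp90 chaperones, for example, sum to 5416, 5680.2 and 2895 CPM in the control and 4878, 4909.6 and 2455 CPM in the *Thada*-activated libraries.

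**Figure D3:**
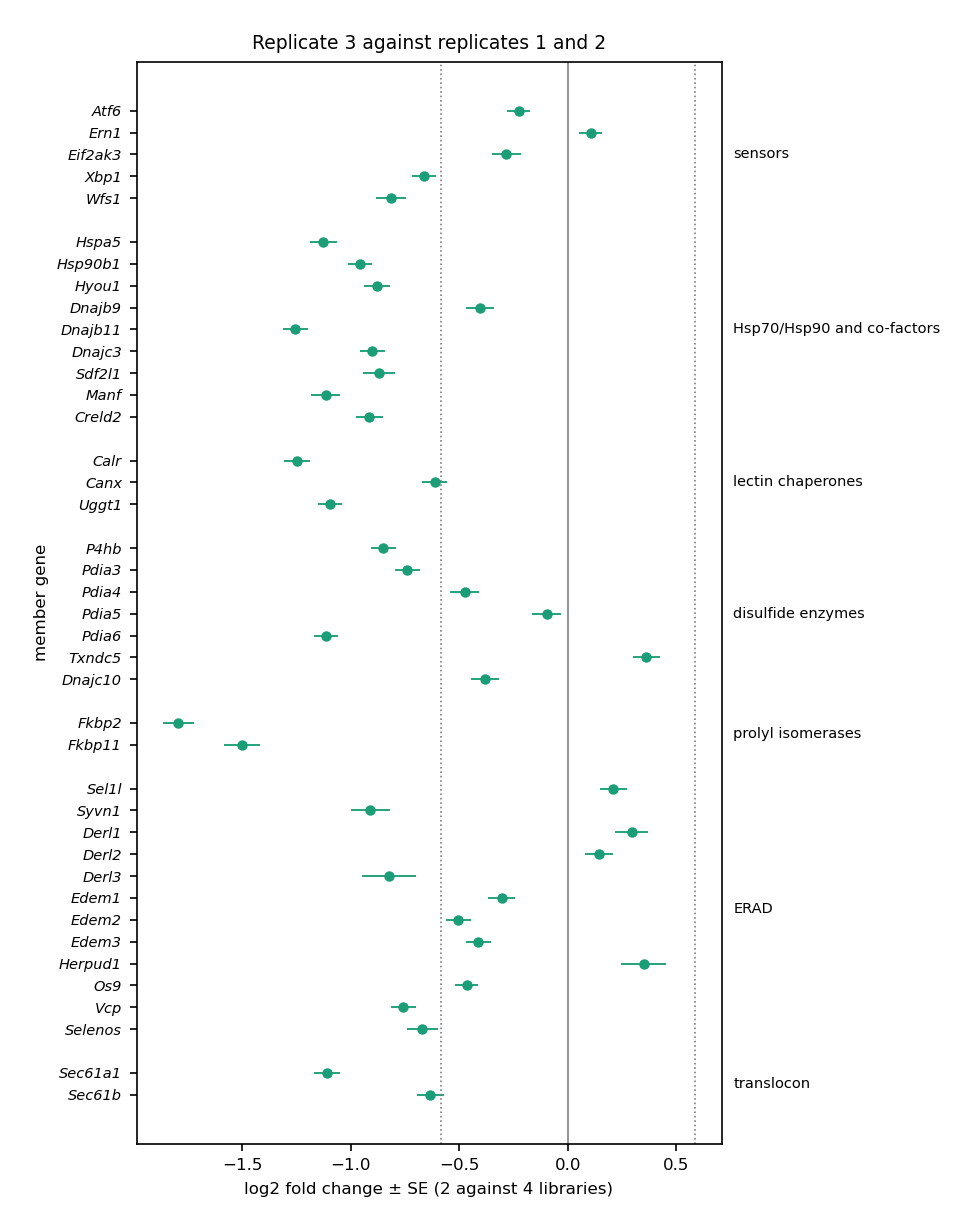
Log2 fold change of replicate 3 over replicates 1 and 2 for each member, grouped by role, with the condition in the fit; bars are the standard error from edgeR over 2 against 4 libraries and dotted lines mark a fold change of 1.5. Of 40 members, 24 lie beyond the lower line and none beyond the upper.

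Among the sensors and their regulators, the conditions were close together, and 2 of 5 genes were called in replicate 3, both lower. The 5 genes summed to 754, 752 and 589 CPM in the control and 739, 757 and 574 CPM in the *Thada*-activated libraries. *Atf6*, which encodes a membrane-bound transcription factor that is cut free under ER stress, was at 170.1, 177 and 148 CPM in the control libraries and at 162, 163 and 141 CPM in the *Thada*-activated libraries. Replicate 3 was the lowest library of each condition, and the activated library was the lower at each replicate number. Its log2 fold change between conditions was -0.11 (SE 0.12) without the block and -0.11 (SE 0.059, adjusted p = 0.557) with it, and -0.094, -0.12 and -0.12 by replicate number. In replicate 3 *Atf6* stood at 85.5% of its level in replicates 1 and 2 (log2 fold change -0.23, SE 0.054, adjusted p = 0.00172), short of the fold required.

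*Xbp1*, whose mRNA is spliced by IRE1 into the form that encodes an active transcription factor, was at 269, 267 and 174 CPM in the control libraries and at 272, 279 and 171 CPM in the *Thada*-activated libraries. Both replicate 3 libraries were far under the others, and within replicates 1 and 2 the conditions differed little. Gene counts do not separate the spliced from the unspliced form. The condition values for *Xbp1* were 0.0068 (SE 0.26) without the block and -0.0020 (SE 0.060, adjusted p = 0.994) with it, so its sign differs between the fits, with -0.0029, 0.065 and -0.070 by replicate number. Replicate 3 was lower for *Xbp1* (log2 fold change -0.66, SE 0.056, adjusted p = 1.11e-07). *Wfs1*, an ER membrane protein gene that is mutated in Wolfram syndrome, was at 95.1, 87.03 and 53.99 CPM in the control libraries and at 86.99, 93.1 and 49.6 CPM in the *Thada*-activated libraries. Here too replicate 3 was lowest, and the order of the conditions differed between replicate numbers. Between conditions *Wfs1* had -0.059 (SE 0.32) without the block and -0.071 (SE 0.071, adjusted p = 0.777) with it, and -0.15, 0.10 and -0.17 by replicate number; in replicate 3 it was at 56.9% of replicates 1 and 2 (log2 fold change -0.81, SE 0.070, adjusted p = 1.35e-07).

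The IRE1 gene *Ern1* was at 124, 123 and 128 CPM in the control and 118, 119.5 and 134 CPM in the activated libraries. Replicate 3 was the highest library of each condition, the opposite of *Xbp1*, with log2 fold change 0.10, SE 0.055, adjusted p = 0.104. *Eif2ak3*, which encodes the kinase PERK, was at 95.4, 97.5 and 85.8 and 100.4, 102 and 77.4 CPM. The activated library was slightly higher at replicates 1 and 2 and lower at replicate 3, with 0.055, 0.068 and -0.20 by replicate number. In replicate 3 the value of *Eif2ak3* was lower but short of the fold required (log2 fold change -0.28, SE 0.066, adjusted p = 0.00151). Leaving out 1 library at a time moved the unblocked condition value from -0.17 to 0.21 for *Xbp1* and from -0.27 to 0.18 for *Wfs1*.

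The Hsp70 and Hsp90 chaperones and their co-factors were lower in the activated cells at each replicate number when summed, and lower still in replicate 3. Their sum was 5416, 5680.2 and 2895 CPM in the control and 4878, 4909.6 and 2455 CPM in the *Thada*-activated libraries. With the block, all 9 were below 0, from -0.27 to -0.069 with a median of -0.19, and 0 were called. *Hspa5* encodes BiP, the ER Hsp70 chaperone that also keeps the sensors inactive, and was at 1381, 1493 and 695 CPM in the control libraries and at 1234, 1273 and 548 CPM in the *Thada*-activated libraries. Within replicates 1 and 2 both activated libraries were under both control libraries, but control replicate 3 was under those activated libraries, so the conditions overlap. Between conditions *Hspa5* had log2 fold changes of -0.24 (SE 0.43) without the block and -0.27 (SE 0.064, adjusted p = 0.141) with it, and -0.18, -0.23 and -0.39 by replicate number. In replicate 3 it stood at 45.8% of replicates 1 and 2 (log2 fold change -1.13, SE 0.063, adjusted p = 2.08e-09).

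*Hsp90b1*, the gene of the ER Hsp90 chaperone GRP94, was at 2115, 2292 and 1119 CPM in the control libraries and at 1903, 1863 and 995 CPM in the *Thada*-activated libraries. The pattern was that of *Hspa5*: activated under control within replicates 1 and 2, and replicate 3 under both. The condition values were -0.23 (SE 0.37) without the block and -0.23 (SE 0.061, adjusted p = 0.199) with it, with -0.17, -0.30 and -0.22 by replicate number, and replicate 3 was at 51.5% (log2 fold change -0.96, SE 0.056, adjusted p = 3.56e-09). *Dnajc3* encodes p58IPK, a co-chaperone of BiP that also restrains PERK, and was at 346, 352 and 193 CPM in the control libraries and at 307, 306 and 160.3 CPM in the *Thada*-activated libraries. Both activated libraries of replicates 1 and 2 were again below both controls. *Dnajc3* had -0.22 (SE 0.35) without the block and -0.24 (SE 0.060, adjusted p = 0.182) with it between conditions, -0.19, -0.20 and -0.32 by replicate number, and 53.6% of the level of replicates 1 and 2 in replicate 3 (log2 fold change -0.90, SE 0.056, adjusted p = 6.21e-09).

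*Dnajb11*, another Hsp40 co-chaperone of BiP, was at 168, 174 and 71.5 CPM in the control libraries and at 163, 167 and 70.02 CPM in the *Thada*-activated libraries. The conditions lay close together at each replicate number, and replicate 3 was far lower in both. Its condition values were -0.066 (SE 0.46) without the block and -0.069 (SE 0.059, adjusted p = 0.738) with it, and -0.065, -0.062 and -0.080 by replicate number. The difference of replicate 3 was the widest of this role (log2 fold change -1.26, SE 0.058, adjusted p = 4.12e-10), at 41.9% of replicates 1 and 2. *Dnajb9*, an Hsp40 that represses IRE1 through BiP, was at 211, 213 and 175 CPM in the control libraries and at 189, 189.9 and 132 CPM in the *Thada*-activated libraries. The activated library was lower at each replicate number, most at replicate 3. *Dnajb9* had -0.25 (SE 0.18) without the block and -0.27 (SE 0.070, adjusted p = 0.202) with it between conditions, and was the only gene of the 9 that passed the adjusted p but not the fold in replicate 3 (log2 fold change -0.40, SE 0.066, adjusted p = 7.46e-05). The other 4 were all lower in replicate 3: *Hyou1* -0.88, *Sdf2l1* -0.87, *Manf* -1.11 and *Creld2* -0.91, for an Hsp110-type exchange factor of BiP, a BiP-associated factor, a secreted stress factor and a disulfide isomerase of the ER. Their blocked condition values were *Hyou1* -0.19, *Sdf2l1* -0.13, *Manf* -0.14 and *Creld2* -0.091. The unblocked condition value, with any 1 library left out, went from -0.51 to 0.064 for *Hspa5*, from -0.49 to 0.020 for *Hsp90b1*, from -0.38 to 0.25 for *Dnajb11* and from -0.45 to 0.033 for *Dnajc3*.

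The lectin chaperone cycle holds glycoproteins in the ER until they are folded, and its 3 genes were all called lower in replicate 3. They summed to 3107, 3162 and 1611 CPM in the control and 2957, 2968 and 1424 CPM in the *Thada*-activated libraries. *Calr*, which encodes the soluble lectin chaperone calreticulin, was at 1788, 1767 and 784 CPM in the control libraries and at 1706, 1727 and 696 CPM in the *Thada*-activated libraries. Activated libraries were under control libraries at each number by a small margin, and replicate 3 was far below. *Calr* had -0.088 (SE 0.47) without the block and -0.11 (SE 0.063, adjusted p = 0.576) with it between conditions, -0.087, -0.032 and -0.22 by replicate number, and 42.1% of the level of replicates 1 and 2 in replicate 3 (log2 fold change -1.25, SE 0.059, adjusted p = 5.35e-10). *Canx*, which encodes the membrane-bound form calnexin, was at 886, 941 and 618 CPM in the control libraries and at 857, 842 and 541 CPM in the *Thada*-activated libraries. Both activated libraries of replicates 1 and 2 were under both controls, and replicate 3 was lower with a smaller gap than for *Calr*. *Canx* had -0.15 (SE 0.26) without the block and -0.16 (SE 0.062, adjusted p = 0.398) with it between conditions and -0.067, -0.16 and -0.24 by replicate number.

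The replicate 3 value of *Canx* was close to the fold required (log2 fold change -0.61, SE 0.057, adjusted p = 2.93e-07). It was no longer called without *Thada*-activated replicate 3 (-0.55), in the control libraries alone, or with library sizes without the top 20 genes. *Uggt1*, which encodes the glucosyltransferase that returns unfolded glycoproteins to the cycle, was at 433, 454 and 209 CPM in the control libraries and at 394, 399.7 and 186 CPM in the *Thada*-activated libraries. Activated libraries were lower within each number, and replicate 3 was lowest in each condition. Its condition values were -0.18 (SE 0.41) without the block and -0.19 (SE 0.059, adjusted p = 0.295) with it, with -0.15, -0.18 and -0.22 by replicate number; replicate 3 was at 46.8% of replicates 1 and 2 (log2 fold change -1.09, SE 0.055, adjusted p = 9.35e-10). Without 1 library at a time, the unblocked condition value went from -0.38 to 0.23 for *Calr*, from -0.31 to 0.046 for *Canx* and from -0.46 to 0.11 for *Uggt1*.

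The disulfide enzymes form, break and reshuffle the bonds between cysteines, as proinsulin needs. The 7 genes summed to 4304, 4532 and 2710.3 CPM in the control and 4069.8, 4101 and 2405 CPM in the *Thada*-activated libraries, the activated one being lower at each replicate number. With the block, all 7 were below 0, from -0.25 to -0.056, and 0 were called. *Pdia6*, a disulfide isomerase gene whose protein also binds IRE1, was at 936, 972 and 443 CPM in the control libraries and at 817, 814 and 379 CPM in the *Thada*-activated libraries. Within replicates 1 and 2 the activated libraries were under the controls by more than the controls differed, and replicate 3 was lowest. *Pdia6* had the lowest blocked adjusted p of all members, with log2 fold changes of -0.24 (SE 0.42) without the block and -0.25 (SE 0.059, adjusted p = 0.134) with it, and -0.22, -0.25 and -0.28 by replicate number. In replicate 3 it was at 46.2% of replicates 1 and 2 (log2 fold change -1.11, SE 0.055, adjusted p = 7.38e-10).

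*Pdia3*, the isomerase that works with calnexin and calreticulin, was at 1369, 1486 and 877 CPM in the control libraries and at 1272, 1269 and 749 CPM in the *Thada*-activated libraries. The conditions were apart within replicates 1 and 2, and overlap once replicate 3 is counted. *Pdia3* had -0.20 (SE 0.30) without the block and -0.21 (SE 0.061, adjusted p = 0.265) with it between conditions, -0.13, -0.23 and -0.28 by replicate number, and was lower in replicate 3 (log2 fold change -0.74, SE 0.057, adjusted p = 4.75e-08). *P4hb*, the gene of the founding protein disulfide isomerase, was at 1472, 1513 and 852 CPM in the control libraries and at 1466, 1498 and 807 CPM in the *Thada*-activated libraries. Here the conditions were interleaved within replicates 1 and 2, with only replicate 3 apart. Its condition values were -0.043 (SE 0.34) without the block and -0.056 (SE 0.060, adjusted p = 0.794) with it, and -0.025, -0.013 and -0.13 by replicate number; replicate 3 was at 55.5% (log2 fold change -0.85, SE 0.056, adjusted p = 9.89e-09).

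The other 4 disulfide enzymes were not called in replicate 3. *Pdia5*, the member whose conditions did not overlap, was at 54.9, 55.98 and 53.9 CPM in the control and 52.2, 48.5 and 45.6 CPM in the activated libraries. Its highest activated library was just under its lowest control library, with -0.19 (SE 0.10) without the block and -0.20 (SE 0.070, adjusted p = 0.353) with it, and in replicate 3 it had log2 fold change -0.10, SE 0.067, adjusted p = 0.209. *Pdia4* and *Dnajc10*, a reductase that unties bonds for ERAD, were lower in replicate 3 at *Pdia4* -0.48 and *Dnajc10* -0.38, both under the fold required; *Pdia4* passed it without control replicate 3. *Txndc5*, a further thioredoxin-domain enzyme, was at 175, 176 and 245 and 178, 178 and 212 CPM. It was the only gene of the 7 with higher levels in replicate 3 (log2 fold change 0.36, SE 0.062, adjusted p = 1.27e-04). When 1 library was left out in turn, the unblocked condition value went from -0.26 to 0.20 for *P4hb*, from -0.40 to 0.018 for *Pdia3* and from -0.52 to 0.045 for *Pdia6*.

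The 2 prolyl isomerases, which turn peptide bonds next to proline, had the widest differences of replicate 3 and none between conditions that passed a test. They summed to 276, 246 and 77.3 CPM in the control and 283, 263 and 85.2 CPM in the *Thada*-activated libraries. *Fkbp2* was at 216, 194 and 57.2 CPM in the control libraries and at 227, 209.5 and 65.7 CPM in the *Thada*-activated libraries. The activated library was slightly the higher at each replicate number, and replicate 3 was several times lower in both conditions. *Fkbp2* had 0.088 (SE 0.64) without the block and 0.10 (SE 0.060, adjusted p = 0.606) with it between conditions, with 0.050, 0.11 and 0.15 by replicate number. In replicate 3 it was 3.47-fold lower (log2 fold change -1.79, SE 0.070, adjusted p = 1.02e-10). *Fkbp11*, a membrane-anchored isomerase of secretory cells, was at 60.3, 52.02 and 20.1 CPM in the control libraries and at 56.6, 53.6 and 19.4 CPM in the *Thada*-activated libraries. Replicate 3 was again far below, and the conditions were interleaved. The condition values of *Fkbp11* were -0.046 (SE 0.54) without the block and -0.050 (SE 0.072, adjusted p = 0.850) with it, and -0.11, 0.044 and -0.10 by replicate number; it was 2.83-fold lower in replicate 3 (log2 fold change -1.5002, SE 0.085, adjusted p = 2.38e-09). Leaving out 1 library at a time moved the unblocked condition value from -0.31 to 0.47 for *Fkbp2* and from -0.39 to 0.31 for *Fkbp11*.

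The 12 ERAD genes were divided in replicate 3: 4 were called lower, 4 had values above 0. They summed to 2058, 2121 and 1770.2 CPM in the control and 1961, 2028 and 1542 CPM in the *Thada*-activated libraries. Between conditions with the block, all 12 were below 0, from -0.18 to -0.070, and 0 were called. *Sel1l*, the adaptor that holds the ubiquitin ligase complex together, was at 161, 174 and 206 CPM in the control libraries and at 155, 159 and 171 CPM in the *Thada*-activated libraries. Replicate 3 was the highest library of each condition, the reverse of the chaperones. *Sel1l* had -0.18 (SE 0.13) without the block and -0.18 (SE 0.066, adjusted p = 0.377) with it between conditions, -0.076, -0.13 and -0.32 by replicate number, and log2 fold change 0.21, SE 0.061, adjusted p = 0.00726 in replicate 3, higher but short of the fold required. That value went from 0.0998 without control replicate 3 to 0.32 without *Thada*-activated replicate 3. *Syvn1* encodes HRD1, the ligase that SEL1L binds, and was at 179.8, 167 and 105 CPM in the control libraries and at 164, 183 and 81.7 CPM in the *Thada*-activated libraries. Replicate 3 was lowest, with the activated library the lower of that pair, and the order of the conditions differed at replicates 1 and 2. *Syvn1* had -0.090 (SE 0.36) without the block and -0.13 (SE 0.087, adjusted p = 0.641) with it between conditions, -0.15, 0.14 and -0.41 by replicate number, and log2 fold change -0.91, SE 0.089, adjusted p = 1.42e-06 in replicate 3.

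*Vcp*, the gene of the ATPase p97 that pulls proteins out of the membrane, was at 445, 478 and 275 CPM in the control libraries and at 426, 448 and 258 CPM in the *Thada*-activated libraries. Replicate 3 was the lowest library of each condition, and the conditions were interleaved within replicates 1 and 2. Its condition values were -0.10 (SE 0.30) without the block and -0.11 (SE 0.059, adjusted p = 0.576) with it, with -0.081, -0.093 and -0.14 by replicate number; in replicate 3 it was lower (log2 fold change -0.76, SE 0.057, adjusted p = 3.56e-08). *Edem3*, a mannosidase gene that marks glycoproteins for ERAD, was at 131, 143 and 102 CPM in the control libraries and at 122, 123 and 93.9 CPM in the *Thada*-activated libraries. Activated libraries were lower at each replicate number, and replicate 3 was lowest. *Edem3* had -0.17 (SE 0.18) without the block and -0.17 (SE 0.060, adjusted p = 0.365) with it between conditions, -0.12, -0.21 and -0.17 by replicate number, and log2 fold change -0.41, SE 0.058, adjusted p = 1.77e-05 in replicate 3, under the fold required.

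*Herpud1*, a stress-inducible ERAD membrane protein gene, was at 135, 124 and 196 CPM in the control and 131, 135 and 142 CPM in the activated libraries. Control replicate 3 was well above all others, and the remaining 5 libraries were close together. *Derl1*, a channel-forming membrane protein gene, was at 164, 174 and 234 and 164, 165 and 179 CPM, with the same library on top. Both were higher in replicate 3 at an adjusted p under 0.05 (*Herpud1* 0.35 and *Derl1* 0.29), and *Herpud1* passed the fold without *Thada*-activated replicate 3. Without control replicate 3, the highest value of any member was 0.22, so those of *Herpud1* and *Derl1* were not above that. *Derl2* had 0.14 in replicate 3. The others were lower: *Derl3* (-0.82) and *Selenos* (-0.67) were called, *Selenos* not without *Thada*-activated replicate 3, and *Edem1* -0.31, *Edem2* -0.50 and *Os9* -0.47, genes that recognize misfolded glycoproteins, were under the fold. The unblocked condition value, with any 1 library left out, went from -0.31 to 0.20 for *Syvn1* and from -0.31 to 0.12 for *Vcp*.

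The translocon is the channel through which new proteins enter the ER, and its 2 member genes summed to 629, 612 and 329 CPM in the control and 639, 647 and 316 CPM in the *Thada*-activated libraries. *Sec61a1*, the gene of the pore subunit, was at 476, 473 and 233 CPM in the control libraries and at 472, 483 and 210.4 CPM in the *Thada*-activated libraries. The conditions were interleaved within replicates 1 and 2, and replicate 3 was lowest in each. *Sec61a1* had -0.038 (SE 0.42) without the block and -0.065 (SE 0.064, adjusted p = 0.775) with it between conditions, -0.031, 0.030 and -0.20 by replicate number, and 46.3% of the level of replicates 1 and 2 in replicate 3 (log2 fold change -1.11, SE 0.061, adjusted p = 1.95e-09). *Sec61b*, a small subunit of the same channel, was at 153, 139 and 96.2 CPM in the control libraries and at 166, 164 and 105 CPM in the *Thada*-activated libraries. The activated library was the higher at each replicate number, unlike most members, and replicate 3 was the lowest of each condition. Its condition values were 0.14 (SE 0.25) without the block and 0.14 (SE 0.062, adjusted p = 0.465) with it, with 0.10, 0.24 and 0.081 by replicate number; in replicate 3 it was lower (log2 fold change -0.63, SE 0.062, adjusted p = 5.13e-07). Without 1 library at a time, the unblocked condition value went from -0.30 to 0.26 for *Sec61a1* and from -0.027 to 0.34 for *Sec61b*.

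Levels can be compared between genes in FPKM, which divides by gene length. The most abundant members, as the mean over the 6 libraries, were *Calr* at 791 FPKM, *Hsp90b1* at 659, *P4hb* at 533, *Pdia3* at 471 and *Hspa5* at 463 FPKM. The least abundant was *Derl3* at 9.05 FPKM, and *Thada* itself was at 5.25 FPKM. All 10 members with the highest mean FPKM, from 136 to 791 FPKM, were called lower in replicate 3, with a median log2 fold change of -1.03. Of the 10 with the lowest, from 9.05 to 32.6 FPKM, 2 were called (*Wfs1* and *Derl3*), with a median of -0.26. Of the 20 in between, 12 were called, with a median of -0.71. Over all genes, 15.4% were called lower in replicate 3. That share was not divided by level, so it is not known whether other genes show the same relation. No test was made of this relation with level.

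For some genes of the whole series the difference between conditions was itself unlike in replicate 3, and a few members were among them. In the edgeR fit with an interaction term, 5 of 40 members had an adjusted p under 0.05, beside 6.96% of all genes. In each of these members the log2 ratio of activated to control was lower at replicate 3 than at replicates 1 and 2. The log2 differences were -0.54 (SE 0.094, adjusted p = 5.52e-05) for *Herpud1*, -0.39 (SE 0.091, adjusted p = 0.00276) for *Derl1* and -0.40 (SE 0.10, adjusted p = 0.00804) for *Syvn1*. *Dnajb9* had -0.29 (SE 0.091, adjusted p = 0.0376) and *Txndc5* -0.27 (SE 0.089, adjusted p = 0.0495). By replicate number, the log2 ratios of activated over control were -0.070, 0.13 and -0.52 for *Herpud1* and -0.018, -0.071 and -0.44 for *Derl1*. The DESeq2 interaction test kept *Herpud1* (adjusted p = 0.00752) and *Derl1* (adjusted p = 0.0482) of the 5, beside 130 of 12516 genes at that threshold. A single library stands for each condition at replicate 3, so the spread behind these p-values comes from replicates 1 and 2 only. For *Thada* the term was 0.52 (SE 0.13, adjusted p = 0.00935), a larger difference between conditions at replicate 3.

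A wider list of 83 other genes of ER oxidation, co-chaperones, ERAD, glycosylation and translocation was fitted in the same way. Of these, 81 were in the table and 80 passed the filter; together they made up 1.73, 1.81 and 1.45% of counts in the control and 1.72, 1.71 and 1.40% in the *Thada*-activated libraries. Between conditions edgeR called 0 of 80 without and 0 with the block, with 0 and 8 at an unadjusted p under 0.05, beside 0.807 and 10.4% of all genes, and DESeq2 called 0. With the block, 62 of 80 were below 0 with a median of -0.056, and 31 of 80 were lower in all 3 pairs of the same number, beside 16.7% of all genes. In the interaction fit, 6 of 80 had an adjusted p under 0.05, beside 6.96% of all genes, and DESeq2 kept 1 of them, *Srpr*.

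The lowest blocked p-values of this wider list belonged to *Ero1l*, an oxidase that recharges disulfide isomerases, to *Erp44*, a thiol chaperone that retrieves proteins to the ER, and to *Prkcsh*, a subunit of glucosidase II, all lower in the activated libraries. *Ero1l* was at 245, 291 and 188 CPM in the control libraries and at 224, 226 and 171 CPM in the *Thada*-activated libraries. Activated libraries were lower at each replicate number, with -0.24 (SE 0.20) without the block and -0.23 (SE 0.064, adjusted p = 0.220) with it. The blocked values of *Erp44* and *Prkcsh* were -0.26 (adjusted p = 0.265) and -0.22 (adjusted p = 0.327). Among those higher, the lowest p-values belonged to *Txndc11*, *Mbtps1*, whose protease cuts ATF6, and *Qsox1*, at *Txndc11* 0.13, *Mbtps1* 0.10 and *Qsox1* 0.080. For replicates 1 and 2 alone, *Ero1l* and *Sec63*, which helps BiP at the translocon, had an adjusted p under 0.05, both lower. These are 2 of 80 genes, beside 3.41% of all genes. With the replicate block on the same libraries, *Ero1l* kept an adjusted p under 0.05 and *Sec63* did not.

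In replicate 3, 20 of the 80 were called, beside 31.1% of all genes. Of these, 17 were lower, beside 15.4% of all genes, and 3 higher, and the median log2 fold change of the 80 was -0.23. Of the genes that add or trim glycans 8 of 14 were called, all lower, among them *Magt1* (-1.42) and *Ddost* (-1.24) of the oligosaccharyltransferase. *Ddost* was at 631, 654 and 278 CPM in the control libraries and at 624, 637 and 264 CPM in the *Thada*-activated libraries. Both replicate 3 libraries lay far under the other 4, and the conditions were close at each number. Of 22 other ERAD genes 1 was called, *Erlec1* (-0.69). The thiol peroxidase gene *Gpx7* had -1.28 at levels near 1 CPM or under. Those called higher were *Sil1* (1.58), an exchange factor of BiP, the isomerase gene *Fkbp7* (1.29) and *Txndc12* (0.96). *Sil1* was at 44.1, 48.5 and 145 CPM in the control libraries and at 47.9, 44.2 and 132 CPM in the *Thada*-activated libraries. Its replicate 3 libraries were several times above the others in both conditions, the reverse of its partner *Hspa5*.

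Some of the members share letters in their promoters. The RefSeq windows of build GRCm38.p6, from 250 bases before to 50 after each start, hold 41 windows for 35 members; none is given for *Atf6*, *Hyou1*, *Manf*, *Derl1* and *Sec61a1*. The ER stress response element (ERSE), CCAAT and CCACG parted by 9 bases of any kind, was looked for on both strands. It was in the windows of 9 of 35 members (25.7%), beside 37 of 27025 genes (0.137%) and 1 of 62 of the wider list. The members were *Hspa5*, *Hsp90b1*, *Dnajc3*, *Creld2*, *Calr*, *Canx*, *Pdia6*, *Syvn1* and *Derl3*. A related form (ERSE-II), ATTGG and CCACG parted by 1 base, was in *Dnajb11* and *Herpud1*, beside 12 of 27025 genes (0.0444%). The XBP1 element TGACGTGG was in *Txndc5* and *Vcp*, beside 193 genes (0.714%) and 2 of 62 of the wider list.

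Members with and without these letters are described side by side, with no test between them. Of the 11 members with an ERSE or ERSE-II match, 10 were called lower in replicate 3, with a median log2 fold change of -0.91; the exception was *Herpud1*, at 0.35. Of the 24 with a window but no match, 11 were called lower, with a median of -0.49, and *Fkbp2* and *Fkbp11*, which had the widest differences, are among them. Of the 5 with no window, 3 were called lower, with a median of -0.88, close to that of the members with a match. Over all genes, 15.4% were called lower in replicate 3. Between conditions with the block, the medians were -0.16 with a match, -0.10 with a window but no match and -0.14 with no window. A match is a stretch of letters and not a known binding site.

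The windows of 6 members are printed to show the element where it was found in genes that moved together in replicate 3 (*Hspa5*, *Calr*, *Pdia6*, *Syvn1*), and its related form in a gene that moved with them and a gene that did not (*Dnajb11*, *Herpud1*). Each runs 5′ to 3′ along the strand of its gene, and capitals mark the fixed letters of the match on either strand. The windows are *Hspa5* chr2:34771840-34772139 on the plus strand, *Calr* chr8:84846882-84847181 on the minus strand, *Pdia6* chr12:17266339-17266638 on the plus strand, *Syvn1* chr19:6046326-6046625 on the plus strand, *Dnajb11* chr16:22857595-22857894 on the plus strand and *Herpud1* chr8:94386179-94386478 on the plus strand.
Hspa5: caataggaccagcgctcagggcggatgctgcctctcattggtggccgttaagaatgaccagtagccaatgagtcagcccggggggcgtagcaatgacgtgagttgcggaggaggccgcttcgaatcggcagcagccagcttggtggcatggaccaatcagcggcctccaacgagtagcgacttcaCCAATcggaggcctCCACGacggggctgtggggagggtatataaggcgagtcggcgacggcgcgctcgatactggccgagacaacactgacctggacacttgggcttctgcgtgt
Calr: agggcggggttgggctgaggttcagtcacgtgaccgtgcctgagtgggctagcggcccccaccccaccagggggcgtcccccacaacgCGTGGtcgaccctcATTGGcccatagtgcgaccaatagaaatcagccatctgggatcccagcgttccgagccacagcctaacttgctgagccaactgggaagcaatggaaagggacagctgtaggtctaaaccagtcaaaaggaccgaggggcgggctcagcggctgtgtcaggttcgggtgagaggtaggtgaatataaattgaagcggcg
Pdia6: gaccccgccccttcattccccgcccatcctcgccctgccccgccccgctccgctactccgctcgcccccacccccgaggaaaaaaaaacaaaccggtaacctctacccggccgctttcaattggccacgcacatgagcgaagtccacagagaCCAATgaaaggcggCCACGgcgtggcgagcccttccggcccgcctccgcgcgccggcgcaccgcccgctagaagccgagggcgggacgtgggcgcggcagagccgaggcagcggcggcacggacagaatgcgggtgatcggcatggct
Syvn1: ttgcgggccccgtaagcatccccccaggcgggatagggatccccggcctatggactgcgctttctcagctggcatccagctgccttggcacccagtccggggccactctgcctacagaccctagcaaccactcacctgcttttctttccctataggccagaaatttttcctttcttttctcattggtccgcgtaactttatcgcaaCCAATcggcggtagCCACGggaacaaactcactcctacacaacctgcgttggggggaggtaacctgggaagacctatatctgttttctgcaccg
Dnajb11: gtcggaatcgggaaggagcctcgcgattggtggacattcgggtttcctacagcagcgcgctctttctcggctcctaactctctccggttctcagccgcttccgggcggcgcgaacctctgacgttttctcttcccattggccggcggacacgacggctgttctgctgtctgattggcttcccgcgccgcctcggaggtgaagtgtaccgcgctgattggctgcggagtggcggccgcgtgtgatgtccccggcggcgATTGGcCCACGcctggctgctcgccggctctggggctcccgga
Herpud1: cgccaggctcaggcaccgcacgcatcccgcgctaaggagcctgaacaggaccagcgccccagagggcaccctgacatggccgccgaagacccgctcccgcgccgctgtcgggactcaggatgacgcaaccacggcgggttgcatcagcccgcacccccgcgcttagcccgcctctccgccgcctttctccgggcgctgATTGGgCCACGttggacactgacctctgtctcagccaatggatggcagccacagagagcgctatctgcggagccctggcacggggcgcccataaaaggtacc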

How the data were processed

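The data are RNA counts of 3 control and 3 *Thada*-activated MIN6 libraries. The authors deposited estimated counts per gene for each library and, in a joint table, FPKM values; the estimated counts used here were those of the single libraries, and FPKM served to compare levels between genes and as an alternative. The submitters' processing notes name Bowtie2, RSEM and DESeq2 with build GRCm38, without versions, settings or order. How reads shared by near-identical genes were divided is not given in the sources used here. The joint table also holds the authors' own fold changes, p-values and q-values between the conditions, mean levels and TPM, which were not used. A broken line in the joint table (1) was dropped, and counts were rounded to whole numbers (from 91.1% to 91.9% of them equalled a whole number exactly as deposited).

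Genes were kept by filterByExpr (12516 of 16640), scaled by TMM and fitted over all genes with edgeR 4.0.16 in R 4.3.3 (quasi-likelihood test, robust), with the condition, with the condition and the replicate number as a block, with the condition and replicate 3 against replicates 1 and 2, and with their interaction. Calls needed an adjusted p (Benjamini-Hochberg) under 0.05 together with a fold change over 1.5, or the adjusted p alone for the interaction. *Thada* was also compared by an exact permutation test over libraries. CPM are shares of the library totals without TMM, and ratios by replicate number are differences of log2 CPM with TMM and a prior count of 2. The floor was 3 counts in a library. The tests were tried on simulated data, and the outcome is not given here.

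The members and lists were chosen with earlier results of these data known. Members given in full are, in each role, that with the highest mean FPKM, the 2 with the lowest p with the block and the 2 with the lowest p in the replicate 3 comparison; genes named from the wider list are the 3 with the lowest blocked p in each direction and the 3 with the largest fold in each direction among those called in replicate 3. *Dnajb9*, *Txndc5*, *Derl1*, *Herpud1*, *Pdia5*, *Ern1*, *Eif2ak3*, *Sec63*, *Erlec1*, *Srpr*, *Stt3a*, *Nploc4* and *Erlin2* were added after their values were seen. Of the listed genes, *Gpx8*, *March6*, *Cpa1*, *Prss2*, *Cela1*, *Pnlip*, *Pdgfrb* and *Ptprc* were not in the table; *Ufd1* and *Selenok* were matched by older symbols.

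The labels do not say that replicate numbers pair the cultures. After each gene's mean over a condition was removed, the correlation across genes was 0.667, 0.671 and 0.869 between libraries numbered 1, 2 and 3. It was 0.705 and 0.726 when numbers 1 and 2 were crossed, and between -0.784 and -0.766 for any crossing that involves number 3. Since each same-number value is above 0.1, the numbers were treated as pairing libraries. This rule cannot show that numbers 1 and 2 pair libraries, because their crossed values were higher than their same-number values. With replicate 3 apart in both conditions, values above 0 arise for numbers 1 and 2 whether crossed or not. The blocked fits and the ratios by replicate number rest on this choice. Alternatives were DESeq2 1.42.0 (size factors, and its Wald test), library sizes without the top 20 genes, no filter, at least 10 counts in every library, limma 3.58.1 with trend on FPKM, as log2 after adding 1 or 0.1, each library or replicate number left out, the block, replicate 3 as a batch, replicates 1 and 2 alone, each condition alone, and no minimum fold.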

Additional observations from a re-analysis of the deposited data

Results flagged for a closer look

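In an edgeR fit with an interaction term, the difference between *Thada*-activated and control libraries was unlike at replicate 3 and at replicates 1 and 2 for the following genes, each given as the log2 difference of the condition effect in replicate 3 from that in replicates 1 and 2. *Thada* itself, the target, had 0.52 (adjusted p = 0.00935). Of the members, *Herpud1* had -0.54 (adjusted p = 5.52e-05), *Derl1* -0.39 (adjusted p = 0.00276), *Syvn1* -0.40 (adjusted p = 0.00804), *Dnajb9* -0.29 (adjusted p = 0.0376) and *Txndc5* -0.27 (adjusted p = 0.0495). Of the wider list of ER genes, *Srpr* had -0.38 (adjusted p = 0.00148), *Erp44* -0.36 (adjusted p = 0.00776), *Stt3a* -0.34 (adjusted p = 0.00846), *Prkcsh* -0.31 (adjusted p = 0.0187) and *Nploc4* -0.31 (adjusted p = 0.0318), while *Erlin2* had 0.36 (adjusted p = 0.0164). Of the β-cell markers, *Ins2* had -0.40 (adjusted p = 0.00190) and *Mafa* -0.46 (adjusted p = 0.00460), while *Iapp* had 0.42 (adjusted p = 3.22e-04), *G6pc2* 0.51 (adjusted p = 7.41e-04) and *Slc30a8* 0.41 (adjusted p = 0.00547). With DESeq2 the adjusted p was under 0.05 only for *Herpud1*, *Derl1*, *Srpr* and *Iapp* of these genes, and *Thada* was given none. At replicate 3 each condition is a single library, so a difference of that condition and a difference of that library cannot be told apart.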

How the results depend on the processing

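No alternative scaling, filter, test or left-out library, and no fit with the replicate block, called a member or a gene of the wider list between the conditions. The block changed no call of a member: it left 0 of 40 called, and moved the median from -0.10 to -0.11. Settings without a minimum fold and the block under other scalings were added after the data were seen. Without a minimum fold, the members between conditions numbered 5 with the replicate block and no replicate 3 (beside 366 of 12480 genes), 7 with replicates 1 and 2 alone (beside 426 of 12480) and 2 with replicate 3 as a batch (*Hspa5*, *Pdia6*; beside 93 of 12516), and 1 and 2 genes of the wider list with the first 2 of these settings; dropping the fold widens the call by construction. In the replicate 3 comparison it gave 37 members and 67 genes of the wider list, beside 68.6% of all genes. The interaction by DESeq2 gave 2 members in place of 5, 1 gene of the wider list in place of 6 and, of the 5 β-cell markers, *Iapp* alone; the cause was not tested.

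With a library left out in turn, the members' median between conditions went from -0.30 (without control replicate 3) to 0.055 (without *Thada*-activated replicate 3), as did the unblocked values of 18 genes: from -0.17 to 0.21 for *Xbp1*, from -0.27 to 0.18 for *Wfs1*, from -0.51 to 0.064 for *Hspa5*, from -0.49 to 0.020 for *Hsp90b1*, from -0.38 to 0.25 for *Dnajb11*, from -0.45 to 0.033 for *Dnajc3*, from -0.38 to 0.23 for *Calr*, from -0.31 to 0.046 for *Canx*, from -0.46 to 0.11 for *Uggt1*, from -0.26 to 0.20 for *P4hb*, from -0.40 to 0.018 for *Pdia3*, from -0.52 to 0.045 for *Pdia6*, from -0.31 to 0.47 for *Fkbp2*, from -0.39 to 0.31 for *Fkbp11*, from -0.31 to 0.20 for *Syvn1*, from -0.31 to 0.12 for *Vcp*, from -0.30 to 0.26 for *Sec61a1* and from -0.027 to 0.34 for *Sec61b*. *Syvn1* was an exception, since its lowest value, -0.31, came without *Thada*-activated replicate 2 and not without control replicate 3. Leaving out a replicate 3 library makes the conditions differ in their share of replicate 3. *Xbp1* turned below 0 with the replicate block (-0.0020), with DESeq2 (-0.0026) or its size factors (-0.0025) in that fit, without replicate 1 (-0.002) or 2 (-0.036) in it, and with replicate 3 as a batch (-0.0018). *Sec61a1* turned above 0 in the blocked fit without replicate 3 (3.90e-04) and with replicates 1 and 2 alone (4.09e-04); the cause was not tested. Of 210 values of the 21 members given in full under other settings of the replicate 3 comparison, 208 kept direction and call; both exceptions were *Canx*. Of the other members, *Herpud1* gained and *Selenos* lost the call in the control libraries alone, and *Pdia4* gained it in the *Thada*-activated libraries alone. No scaling moved the median of all genes by over 0.1.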
